A study of Mus musculus with 6 samples.

Results

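The cytosolic ribosomal protein genes encode the proteins of the ribosome that works in the cytoplasm. Members were taken by symbol from the RNA-seq count table: Rpl or Rps followed by a number and the usual suffixes, the stalk genes Rplp0, Rplp1 and Rplp2, and Rpsa, with at least 50 counts over both libraries. Of 85 matching symbols 82 passed, among 14367 genes with that many counts and 42303 rows in all. They comprised 41 large subunit genes, 32 small subunit genes, 3 stalk genes and 6 paralogs. RefSeq (GRCm38.p6, the mm10 assembly) annotates 78 of them as protein coding and 4 as pseudogenes, namely Rps4l, Rpl6l, Rps3a2 and Rps3a3. Just inside the minimum lay Rpl39l with 71 counts, and just outside it Rpl3l with 1 naive and 3 peak counts and Rps12l1 with 0 and 2, while Rpl10l had 0 in both. The X-linked genes Rpl10, Rps4x, Rpl36a and Rpl39, and Rpl32l on chromosome 10, were not analysed here.

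Microglia, the resident macrophages of the central nervous system, were sorted with antibodies to F4/80 and CD45 after a Percoll gradient, from brains and spinal cords per the labels' protocols and from brains per the series' design text. The naive group came from mice before induction of experimental autoimmune encephalomyelitis (EAE), and the peak group from mice on the second day without a higher score after sustained worsening. EAE, an autoimmune attack on myelin, was induced at 24 to 28 weeks of age with residues 35 to 55 of myelin oligodendrocyte glycoprotein in Ccr2rfp/+::Cx3cr1gfp/+ mice, which carry a reporter in place of a copy of each receptor gene. All samples are labelled C57Bl/6, the genotype of the naive mice is not labelled separately, and 30 mice were pooled per condition. RNA-seq was made from 1 library per condition, so no RNA difference below has a replicate check or a p-value. Methylated DNA was captured with a methyl-CpG binding domain and sequenced (MiGS) in 2 libraries per condition, which the design text calls biological replicates.

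A ribosome is built from a small subunit, which reads the mRNA, and a large subunit, which joins amino acids. Each subunit needs its proteins in near equal number, and the genes, scattered over the genome, are usually expressed together. Their mRNAs begin with a C followed by an unbroken run of pyrimidines, the terminal oligopyrimidine or TOP tract, through which the kinase complex mTORC1 and the protein LARP1 adjust their translation. In mammals most of these genes also left processed pseudogenes, copies of the spliced mRNA inserted elsewhere, whose sequence can be nearly that of the parent's exons.

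The following 30-base stretches from the RefSeq promoter table (GRCm38.p6) are shown because they hold a pyrimidine run near the annotated start. The genes lie at both ends of the range of RNA ratios or recur below. Capitals mark the pyrimidine run, and each is written 5′ to 3′ on the gene's own strand.
Rpl41, chr10:128549119-128549148, minus strand: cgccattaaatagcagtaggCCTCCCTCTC
Rps23, chr13:90923142-90923171, plus strand: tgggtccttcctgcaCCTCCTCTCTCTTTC
Rpl4, chr9:64173406-64173435, plus strand: agcgtggCCTTCTCCTCTCCCCgtcatggt
Rpl5, chr5:107900498-107900527, plus strand: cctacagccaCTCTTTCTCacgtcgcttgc
Rps27, chr3:90213631-90213660, minus strand: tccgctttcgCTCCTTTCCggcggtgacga
Rps6, chr4:86857349-86857378, minus strand: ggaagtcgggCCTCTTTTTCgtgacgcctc
Rpl18, chr7:45718062-45718091, plus strand: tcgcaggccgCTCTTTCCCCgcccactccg
In Rpl5 the run began 20 bases before the start that the promoter table gives, at the first base of the gene in the RefSeq gene table. In Rps27 it began 2 bases and in Rps6 1 base before the start, in Rpl18 1 base, in Rpl4 26, in Rps23 35 and in Rpl41 40 bases after it. The runs of Rpl41 and Rps23 reached the end of the promoter window and may be longer. A run of this kind therefore lay near the annotated start both in genes with the highest ratios, such as Rpl41, and in those with the lowest, such as Rps27. Whether the mRNAs of these genes begin with the run was not tested.

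Promoter sequences (250 bases before to 50 after the annotated start) were found for 58 of the 82 members. A C followed by C or T, at least 9 bases in all, lay between 20 bases before and 50 after the start on the gene's strand in 36 of them (62.1%), against 13.4% of all 27025 promoters in the table. The ETS-type motif CCGGAAG, searched on both strands of the whole window, occurred in 24 members (41.4%), against 9.12% of all promoters and 11.8% of those of protein-coding genes. CCCCGCCC, an SP1-type motif, occurred in 19 (32.8%, against 17.8% of all), AAGATGGC, a YY1-type motif, in 5 (8.62%, against 2.88%), and TATAAA in 4 (6.90%, against 14.2%), again on both strands. The median number of CpG sites in the window was 22.5 in members and 13 in other protein-coding genes. The median log2 ratio was 0.83 with the pyrimidine run and 0.86 without, and 0.85 with the ETS-type motif and 0.82 without. It was 0.83 with the SP1-type motif and 0.83 without, and 0.82 with the YY1-type motif and 0.83 without. It was 1.14 in the 4 members with TATAAA and 0.82 in the others. A match of letters is a description of the window and not a binding site.

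The RNA-seq libraries held 31282093 naive and 36561934 peak counts, and the 4 MiGS files held between 30424742 and 43970332 recovered window reads. In the RNA, 9 measured microglial markers summed to 42875 naive and 26859 peak CPM (counts scaled to a common library total), and none of the 9 was at 0 in either library. Monocyte markers (14 listed, none at 0) summed to 140 and 1206 CPM, with Ly6c2 at 5 and 338 counts and Ccr2 at 542 and 1059. T cell markers (10 listed) summed to 4.61 and 12.6, with Cd3e, Cd3g and Cd8a at 0 in the naive library. Proliferation genes (16 listed) summed to 161 and 1124, with Mki67, a protein of dividing cells, at 469 and 10076 counts. Astrocyte markers summed to 997 and 466 CPM and endothelial markers to 220 and 123 CPM, with 7 of 10 at least 2-fold lower in each list. These differences in markers, some higher and some lower at peak, lay between the same libraries as the ribosomal protein RNA described next. Their part in it was not tested. In such bulk samples more cells of a type and more RNA per cell cannot be told apart.

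The members' own rows made up 0.313% of naive counts (exact 95% interval 0.311 to 0.315) and 0.590% of peak counts (0.587 to 0.592). With the rows named as pseudogenes of ribosomal proteins, described below, the shares were 0.465% and 0.936%. Here and below, intervals cover counting error only. After scaling by TMM, 31 of the 82 members (37.8%) were at least 2-fold higher in the peak library, against 11.6% of all genes with 50 or more counts. None was at least 2-fold lower, against 9.35%. In 16 members the whole counting interval lay above 2-fold, against 8.83%. The ratio was above 1 in 80 members, against 49.8% of all genes. At 1.5-fold, 66 members (80.5%) were higher, against 20.4% of all genes, and 0 were lower, against 18.4%. The counting interval of the ratio lay wholly above 1 in 78 members, against 38.5% of all genes, and wholly below 1 in Rpl7l1 alone, against 37.0%. The median log2 ratio of peak over naive was 0.83 (1.78-fold) in members and -0.0027 in all genes. The members also lay closer together, with an SD of the log2 ratio of 0.376 against 1.11 over all genes, and a range from -0.25 to 1.64. The plot of member ratios shows a nearly unbroken gradient with no separate group of subunit genes.

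**Figure D1:**
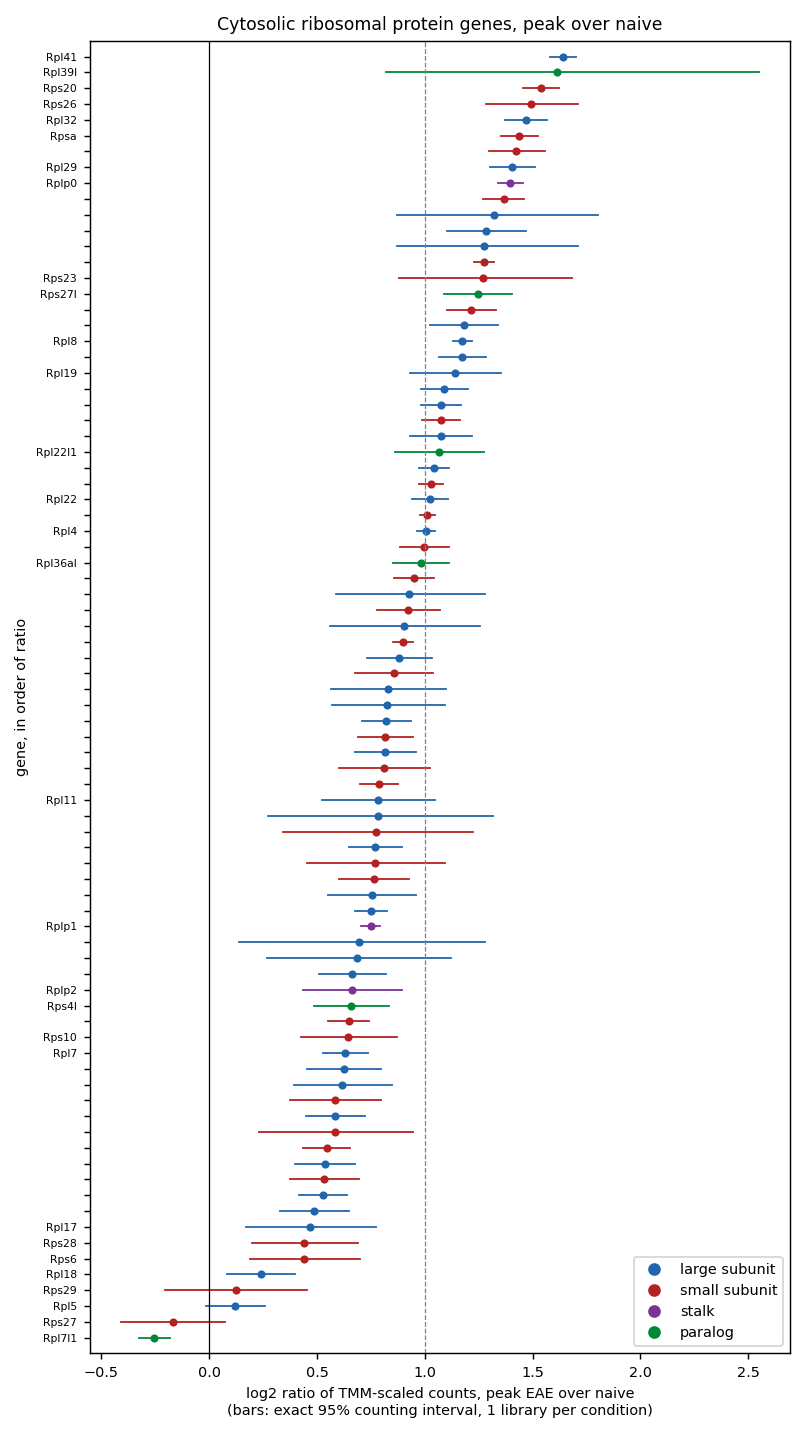
Log2 ratio of TMM-scaled counts, peak EAE over naive, for the 82 ribosomal protein genes in order of ratio (horizontal axis; bars, exact 95% counting interval; colours, role in the ribosome; names, genes described in the text). Of the 82 genes, 80 lie above 0, with Rps27 and Rpl7l1 below it, and the large and small subunit genes are intermixed along the order.

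Large and small subunit genes had nearly the same distribution. Of the 41 large subunit genes 16 were at least 2-fold and 34 at least 1.5-fold higher, with a median log2 ratio of 0.83. Of the 32 small subunit genes 11 and 24 were, with a median of 0.84. Summed counts went from 40864 to 91895 in the large subunit and from 42342 to 95346 in the small subunit, so each took 0.131% and 0.135% of naive counts and 0.252% and 0.261% of peak counts.

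Among large subunit genes the highest ratio was that of Rpl41 (chr10:128548110-128549168), which encodes the smallest ribosomal protein, with 2926 naive and 10031 peak counts, or 3.12-fold (interval 2.99 to 3.25). Rpl32 (chr6:115805514-115808743) had 1181 and 3594 counts (2.77-fold, 2.59 to 2.96), and Rpl29 had 1027 and 2990 (2.65-fold, 2.47 to 2.85). The intervals of Rpl41 and Rpl32 did not overlap, so counting error does not cover the gap between them. Rpl8, a core protein near the peptidyl transferase centre, had 6459 and 16024 counts (2.26-fold, 2.19 to 2.32). Rpl4, whose pyrimidine run is shown above, had 6493 and 14340 (2.01-fold, 1.95 to 2.07).

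The low end of the large subunit held Rpl5, Rpl18 and Rpl17. Rpl5, which binds the small ribosomal RNA of the large subunit and, when unassembled, the p53 regulator Mdm2, had 803 and 960 counts (1.09-fold, 0.990 to 1.20). Rpl18 had 590 and 766 (1.18-fold, 1.06 to 1.32), and Rpl17 had 155 and 236 (1.39-fold, 1.13 to 1.71). Rpl11, the partner of Rpl5 in that complex, had 187 and 354 counts (1.72-fold, 1.44 to 2.07), and its interval lay above that of Rpl5; it was chosen after its values were seen.

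In the small subunit the highest ratios included those of Rps20, Rps26 and Rpsa. Rps20 (chr4:3831584-3835655) had 1518 naive and 4846 peak counts, or 2.90-fold (2.74 to 3.08). Rps26 (chr10:128624529-128626506), which lies near the mRNA exit channel, had 244 and 756 (2.82-fold, 2.44 to 3.27). Rpsa (chr9:120127766-120132369), also known as the laminin receptor precursor, had 1464 and 4357 (2.71-fold, 2.55 to 2.88). The intervals of these 3 genes overlapped one another, and their order is not resolved by the counts.

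The lowest small subunit gene was Rps27, with 290 naive and 284 peak counts (0.891-fold, 0.754 to 1.05), and Rps29 had 142 and 170 (1.09-fold, 0.867 to 1.37). Rps28 had 229 and 342 counts (1.36-fold, 1.15 to 1.61). Rps6, the substrate of the S6 kinases, had 217 and 324 (1.36-fold, 1.14 to 1.62). The intervals of Rps27 and Rps29 included 1, and those of Rps28 and Rps6 did not.

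The stalk proteins form the flexible arm that recruits elongation factors. Rplp0, its base, had 3307 and 9570 counts (2.63-fold, 2.53 to 2.74), while its partners Rplp1, with 6067 and 11199 (1.68-fold, 1.63 to 1.73), and Rplp2, with 250 and 435 (1.58-fold, 1.35 to 1.86), had lower ratios. The intervals of Rplp1 and Rplp2 overlapped each other and lay wholly below that of Rplp0.

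The paralogs are second genes for a ribosomal protein. Rpl39l, known for its high expression in testis, had 16 and 55 counts (3.13-fold, 1.77 to 5.85). Rps27l had 460 and 1199 (2.37-fold, 2.13 to 2.65), above its parent Rps27 at 0.891-fold, and the intervals did not overlap. Rpl22l1 had 280 and 645 (2.10-fold, 1.82 to 2.42) and its parent Rpl22 had 1679 and 3757 (2.04-fold, 1.92 to 2.16), with overlapping intervals. Rpl36al had 723 and 1570 (1.98-fold, 1.81 to 2.16) and Rps4l had 429 and 744 (1.58-fold, 1.40 to 1.78). Rpl7l1 (chr17:46773907-46782656), a nucleolar relative of Rpl7, had 3130 naive and 2884 peak counts, or 0.838-fold (0.797 to 0.882). It was the member with the lowest ratio, while Rpl7 itself had 1213 and 2065 counts (1.55-fold, 1.44 to 1.66). The pairs thus differed in which copy had the higher ratio.

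Ribosomal proteins that carry other names were measured beside these. Rack1, a signalling scaffold on the small subunit, had 9573 and 27382 counts (2.60-fold, 2.54 to 2.66). Fau, a fusion of a ubiquitin-like protein with a small subunit protein, had 214 and 268 (1.14-fold, 0.949 to 1.37), with an interval that included 1.

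Levels between genes were compared on the deposited FPKM values, which divide by gene length and library total and carry no TMM scaling. The median over members was 9.59 FPKM in the naive and 17.01 FPKM in the peak library. Rplp1 had the highest level, 392 naive and 619 peak FPKM. Rpl8 followed with 240 and 508, and Rpl4, also among the highest, had 146 and 276. By the mean of both libraries the lowest were Rpl39l at 0.615 and 1.81, Rpl24 at 1.30 and 1.99, Rpl23a at 1.85 and 3.003 and Rpl28 at 2.08 and 3.15. These are values of each gene's own row. For Rpl23a that row held 49 naive and 93 peak counts, and rows named as its pseudogenes, described below, held 1022 and 2138. For Rpl28 the own row held 74 and 131, and its pseudogene rows 936 and 2951. The highest level was 637 times the lowest in the naive library and 342 times in the peak library. The order of members was nearly the same in both libraries, with Pearson's r 0.981 on log10 FPKM and Spearman's rho 0.972 over the 82 genes, which share both libraries.

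**Figure D2:**
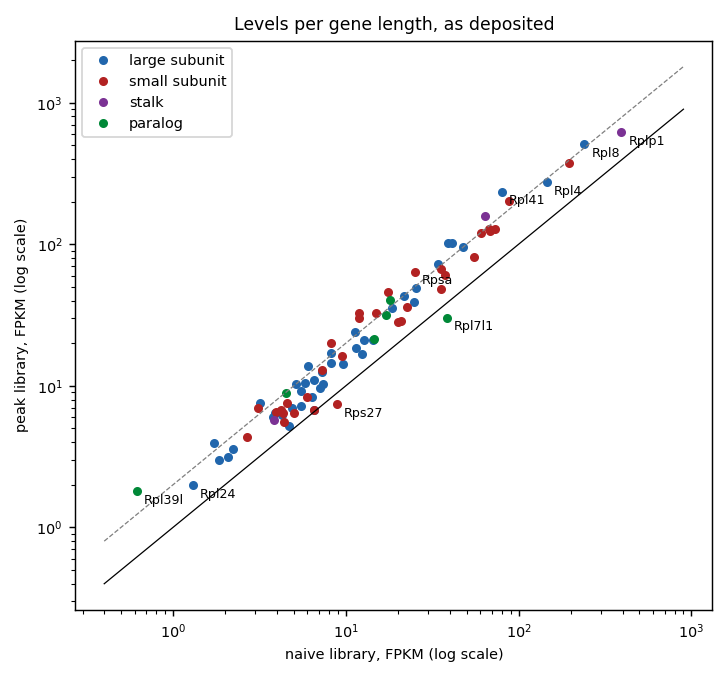
Deposited FPKM of each ribosomal protein gene in the naive (horizontal) and peak library (vertical), both on log scales, coloured by role. The solid line marks equal values and the dashed line 2-fold, both without TMM scaling; levels run from 0.615 to 392 FPKM in the naive library, and Rps27 and Rpl7l1 lie below the solid line.

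Ratio and level were only loosely related among members: Pearson's r of the log2 ratio was 0.303 with log10 mean FPKM and -0.136 with log10 gene length, over 82 genes of the same libraries. Short genes in general had higher ratios. Gene model length was worked out from the deposited counts and FPKM. Its median was 1433 bp in members, against 3584 bp for all genes. Of the 2874 shortest genes (48 to 1739 bp) 19.1% were at least 2-fold higher, with a median log2 ratio of 0.26. The 49 members among these had a median of 0.93. In the next length class, 1740 to 2948 bp, the median was 0.09 over all genes and 0.81 over the 19 members there, so members stood above other genes of like length in both; the part of length in their ratios was not tested.

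Rows named as processed pseudogenes of ribosomal proteins took up many counts. There were 234 such rows, of which 109 were at 0 and 55 had at least 50 counts. Together they held 47467 naive and 126283 peak counts, or 32.7% and 36.9% of all counts in members and these rows. In 22 members these rows outnumbered the gene's own counts. The reads of a gene and of its near-identical copies may be split between the rows, and the sources used here do not give how reads with several matches were handled. The level and ratio of each affected gene are therefore uncertain.

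The 4 parents with the most such counts were Rps23, Rpl19, Rps6 and Rps10. Rps23, a protein of the decoding centre, had 73 and 194 counts in its own row, while Rps23-ps1 had 4547 and 10450 (2.09-fold). Rpl19 had 264 and 640 (2.21-fold, 1.91 to 2.56), and Rpl19-ps11 had 3482 and 10992 (2.87-fold). Rps6 had its 217 and 324 counts beside 3821 and 9448 in Rps6-ps4 (2.25-fold). Rps10 had 264 and 454 (1.56-fold, 1.34 to 1.83), and its pseudogene rows summed to 3177 and 7926 (2.27-fold). In each of these parents the named copies held more than 10 times the parent's own counts.

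Adding these rows to their parents moved several of the low genes upward. Rps6 went from 1.36-fold to 2.18-fold (2.10 to 2.26), Rpl17 from 1.39-fold to 2.59-fold (2.41 to 2.78), and Rpl18 from 1.18-fold to 1.85-fold (1.73 to 1.97). Rps27, Rps29 and Rps28 had no counts in such rows, and Rpl5 had 7 and 18, so their low ratios did not move or, in Rpl5, moved to 1.10-fold. With the rows added, 43 of 82 members (52.4%) were at least 2-fold higher, against 11.6% of all genes. At 1.5-fold 72 (87.8%) were higher, against 20.4%, and the median log2 ratio was 1.01. Among the 31 members with no row named as their pseudogene, 13 (41.9%) were at least 2-fold higher, against 11.6%, and the median was 0.90. This split went by name only. The 31 still held Rpl6l, Rps3a2 and Rps3a3, which are annotated as pseudogenes, beside Rpl6 and Rps3a1. They are therefore not a set known to be free of shared reads. Of the 55 pseudogene rows past the count minimum, 42 had a ratio of 2 or more, and 1, Rpl21-ps10 with 39 and 16 counts, was lower by more than 2-fold.

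**Figure D3:**
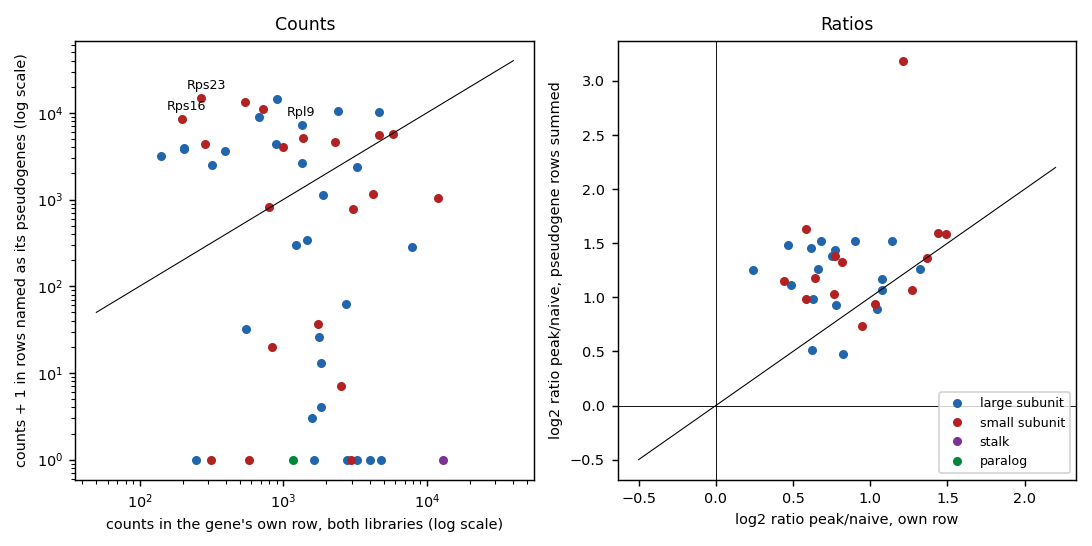
Left, counts over both libraries in each gene's own row (horizontal) and in rows named as its pseudogenes, plus 1 (vertical), on log scales, for the 51 members with such rows; the line marks equality. Right, log2 ratios of own row and summed pseudogene rows for 32 members, with a line of equality; the 32 points lie above 0 on both axes, and Pearson's r was 0.244.

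Other genes of the translation machinery were summarised by lists, whose counts are to be read against 11.6% of all genes at least 2-fold higher, 9.35% lower, and 20.4% past 1.5-fold higher. Of 17 elongation factors 4 were at least 2-fold higher and 1 lower, with a median log2 ratio of 0.57. Eef1b2, an exchange factor subunit, had 2965 and 7770 counts (2.38-fold), Eif5a 2206 and 5638 (2.33-fold) and Eef1g 1011 and 2486 (2.24-fold). The lower gene, Eef2k, the kinase that inactivates elongation factor Eef2, had 11552 and 6190 counts (0.488-fold) and was chosen after its values were seen. Of 18 other mRNAs with a TOP tract 5 were at least 2-fold higher and 0 lower, with a median of 0.74, led by the filament gene Vim with 634 and 5688 counts (8.16-fold) and the nucleolar gene Npm1 with 879 and 2630 (2.72-fold). Of 34 initiation factors 0 were past 2-fold and 11 were at least 1.5-fold higher, with a median of 0.36. In these 3 lists the median lay above that of all genes and below that of the ribosomal proteins.

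Genes that assemble the ribosome had smaller ratios. The 39 genes of small subunit assembly had a median log2 ratio of 0.30 with 1, Rrp12 (398 and 880 counts), at least 2-fold higher. The 53 of large subunit assembly had a median of 0.31 with 2, Noc4l and Sdad1, at least 2-fold higher. The 15 proteins of small nucleolar ribonucleoproteins had a median of 0.38, the 15 dedicated chaperones of ribosomal proteins 0.21, and the 20 genes of RNA polymerase I, which transcribes ribosomal RNA, 0.12. The 12 hosts of small nucleolar RNAs, several of which carry a TOP tract, had a median of 0.96 with 5 at least 2-fold higher, led by Snhg3 with 85 and 288 counts (3.08-fold, 2.41 to 3.98). Of 77 mitochondrial ribosomal protein genes 1, Mrpl54 with 214 and 626 counts (2.66-fold), was at least 2-fold higher. A ratio of 1.5 or more was seen in 23, and the median was 0.39. None of these lists held a gene at least 2-fold lower.

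Regulators were summarised in the same way. Of 38 genes of mTORC1 signalling and TOP mRNA control 4 were at least 1.5-fold higher and 4 lower, with a median of 0.06; both counts are smaller shares than the 20.4% and 18.4% over all genes. Rptor, the mTORC1 scaffold, had 12822 naive and 6999 peak counts (0.497-fold, 0.482 to 0.511). Of 13 Myc network genes, where the shares over all genes are 11.6% higher and 9.35% lower, 1 was at least 2-fold higher, Mxd3 with 10 and 114 counts, and 1 lower, Mycl with 2252 and 549 (0.222-fold, 0.202 to 0.244), with a median of -0.23. Of 14 genes of p53 and its ribosomal surveillance 3 were at least 2-fold higher (11.6% over all genes) and 0 lower: Cdkn2a with 2 and 52 counts, Gdf15 with 29 and 79 and Cdkn1a, a cell cycle inhibitor, with 272 and 689 (2.31-fold). Of 21 genes of ribosome quality control and turnover 0 were past 2-fold, with a median of 0.02.

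**Figure D4:**
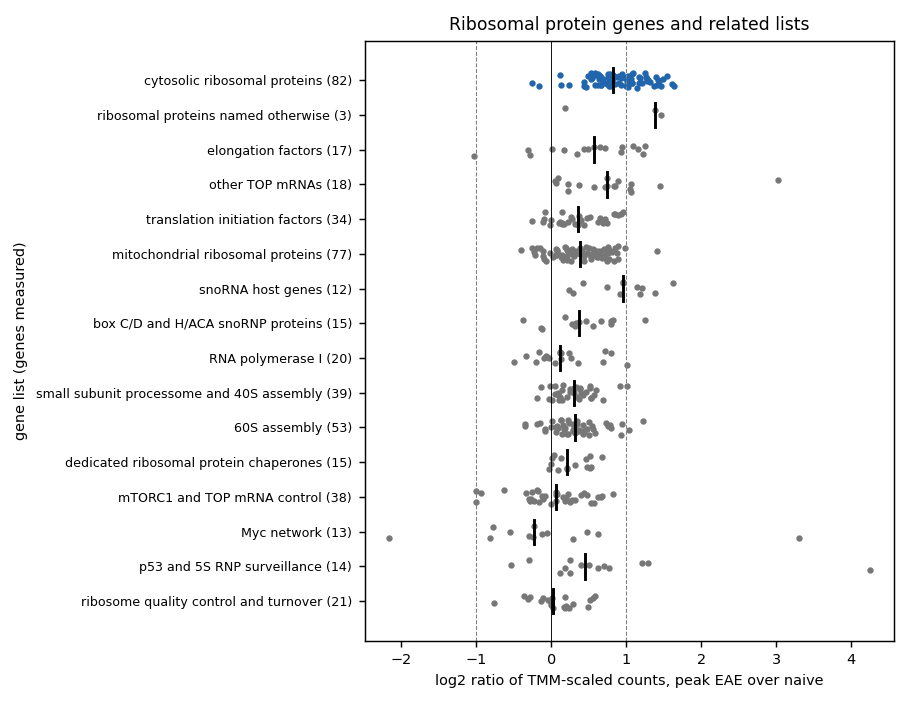
Log2 ratios, peak EAE over naive, for the genes of each list (points, genes; bars, medians; dashed lines, 2-fold; 1 library per condition). The ribosomal proteins have a median of 0.83, elongation factors 0.57, initiation factors 0.36 and RNA polymerase I genes 0.12.

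In the MiGS libraries the median ribosomal protein gene carried little captured methylated DNA. The signal is the deposited value summed over 50 bp windows and divided by length. Within the gene (500 bp left out at each end) 32 of 77 members (41.6%) had no reads in any of the 4 libraries, against 9.77% of 19083 other protein-coding genes. Among all 35179 other genes, protein-coding or not, 18.4% had none. Members are short, with a median of 3170 bp. The median was 6398 bp in 46676 other genes of any type, leaving out those named as ribosomal protein pseudogenes. The part of length in these shares was not tested. Over the whole gene, 74.4% of the 82 members had reads, against 72.5% of those 46676 genes. Member medians within the gene were 0.315 and 0 per kb in naive and 1.47 and 0 in peak libraries, where other protein-coding genes had 7.87 and 8.74, and 9.53 and 7.79. Both ends of the gene (1000 bp of flank and 500 bp of the gene at each) were nearer to the rest: 30 of 82 members (36.6%) had no reads, against 34.2%. In genes of 1000 bp or less, among them Rps4l and Rpl6l, this region is the whole gene with its flanks. On the start side (1000 bp before to 500 bp after the start), 45 of 58 members (77.6%) had none, against 64.9% of 16399 other protein-coding genes. This side was taken where the promoter table gives the strand.

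In the fit without a replicate term no member passed the test between conditions. By limma with Benjamini-Hochberg adjustment, 0 of the 42 member gene ends with at least 20 reads passed an adjusted p of 0.05, against 0% of 24108 genes, and 0 of the 36 gene bodies, against 0% of 26751. At an unadjusted p under 0.05 limma gave 2 of the 42 member gene ends and 0 of the 36 bodies. Over all genes it gave 1122 of 24108 ends and 1099 of 26751 bodies. After adjustment edgeR and DESeq2 called 0 members, and 0 of all genes, in both regions. The ends with the smallest p were those of Rps3a1, Rpl6l and Rpl8. Rps3a1 had 6.05 and 4.26 per kb in naive and 14.4 and 18.8 in peak libraries, and both peak libraries lay above both naive libraries. Its log2 change in limma was 1.63 (SE 0.77, adjusted p 0.888). Rpl8 had 13.6 and 3.87 naive and 23.7 and 15.8 peak, also without overlap (log2 change 1.36, SE 0.70, adjusted p 0.888 in limma). Rpl6l had 23.1 and 44.1 naive and 7.86 and 23.8 peak, and its groups overlapped. Among gene bodies the smallest p was that of Rps13, at 54.1 and 107 naive and 25.8 and 45.1 peak per kb, with no overlap (log2 change -1.14, SE 0.59, adjusted p 0.977 in limma). Rpl36 and Rpl23 followed with the same adjusted p in limma. These values show the spread between the 2 libraries of a condition, which was up to several fold at the same gene.

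Signal at the ends was concentrated in a few members. Rps4l, a pseudogene by annotation whose region is the whole gene with its flanks, had 199 and 556 per kb in naive and 107 and 191 in peak libraries. Rpl39l, the paralog with the fewest RNA counts, had 115 and 350 naive and 60.7 and 139 peak. In Rps4l both peak libraries lay below both naive libraries, by a narrow margin, and in Rpl39l the groups overlapped. Rps14 came next at 31.0 and 34.1 naive and 45.3 and 34.0 peak. On the start side alone, 7 members had at least 20 reads, and Rpl39l had the most, with 1638 reads, or 192 and 631 per kb naive and 83.4 and 228 peak. Next was Rpl34 with 127 reads. The captured start of Rpl39l was thus an exception among the members.

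The 250 bases before the annotated starts of Rpl39l, Rpl41 and Rpsa (RefSeq, GRCm38.p6) are shown to compare that captured start with those of 2 members that had high RNA ratios and no start-side reads; capitals mark CpG, the site that methylation and the capture act on, and each is written 5′ to 3′ on the gene's strand.
Rpl39l, chr16:10169978-10170227, plus strand: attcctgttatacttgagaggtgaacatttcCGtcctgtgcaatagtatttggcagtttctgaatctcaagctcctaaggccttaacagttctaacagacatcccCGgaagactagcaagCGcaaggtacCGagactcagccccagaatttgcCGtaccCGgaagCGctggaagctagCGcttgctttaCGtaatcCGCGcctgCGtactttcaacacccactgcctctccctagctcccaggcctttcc
Rpl41, chr10:128549169-128549418, minus strand: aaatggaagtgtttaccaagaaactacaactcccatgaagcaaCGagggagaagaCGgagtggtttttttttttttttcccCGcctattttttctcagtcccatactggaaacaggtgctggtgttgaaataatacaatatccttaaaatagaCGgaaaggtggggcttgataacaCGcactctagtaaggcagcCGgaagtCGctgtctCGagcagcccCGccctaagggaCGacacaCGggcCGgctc
Rpsa, chr9:120127516-120127765, plus strand: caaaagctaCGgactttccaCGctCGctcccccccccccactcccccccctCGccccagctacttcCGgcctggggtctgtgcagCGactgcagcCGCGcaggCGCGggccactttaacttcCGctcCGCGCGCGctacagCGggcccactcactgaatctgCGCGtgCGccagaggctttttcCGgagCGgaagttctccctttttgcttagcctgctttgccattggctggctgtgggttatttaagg
Rpl39l and Rpl41 each had 12 CpG sites in this stretch and Rpsa had 21. Rpl39l had 1638 start-side reads and Rpl41 had 0. The CpG sites were counted in these 250 bases only, and not over the longer start side that gave the reads.

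Genes named as pseudogenes of ribosomal proteins carried far more captured DNA than the members. Over the whole gene, medians of 284 such genes were 49.3 and 48.5 per kb in naive and 39.9 and 49.0 in peak libraries. The 82 members had 1.92 and 2.68, and 5.14 and 2.30. All other genes had 3.55 and 3.95, and 5.52 and 3.36. The copies are shorter, with a median of 538 bp, and reads from a copy and its parent may not be told apart.

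**Figure D5:**
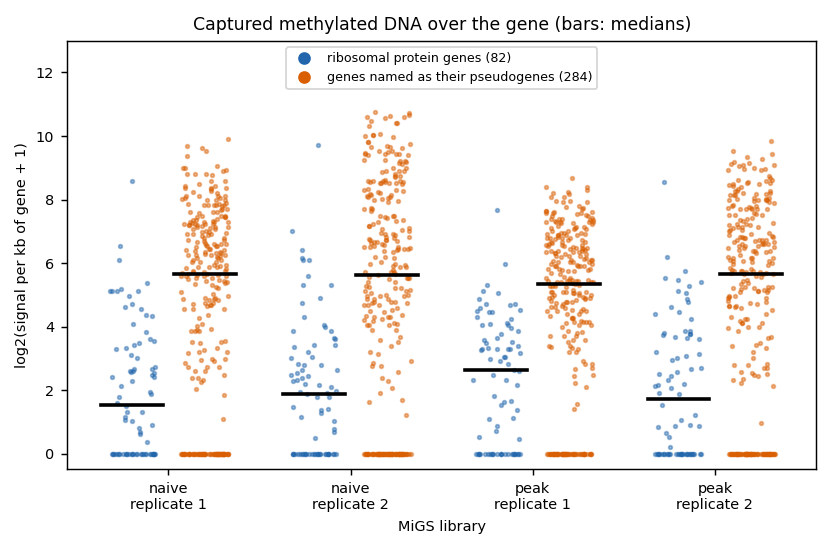
MiGS signal over the whole gene, as log2(signal per kb + 1), in each of the 4 libraries (points are genes and bars are medians). The sets are 82 ribosomal protein genes and 284 genes named as pseudogenes of ribosomal proteins, whether or not the parent is among the 82. In every library the median of the pseudogenes lies above that of the ribosomal protein genes.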

How the data were processed

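RNA was sequenced from 1 library and methylated DNA (MiGS) from 2 libraries per condition. The submitters' processing notes name the tools Bowtie2, TopHat, featureCounts, edgeR and the build mm10. The roles and versions of these, the strand setting and the treatment of reads with several matches were not given in the sources used here. Per the labels' protocols, the RNA library kit was stranded and depleted ribosomal RNA. The deposited table holds raw counts and FPKM per Ensembl gene, per the file headers. Gene model lengths were worked out from these, taking FPKM as counts per length and library total. Symbols came from an Ensembl name table; 506 rows without a symbol (0.0573% of naive and 0.0647% of peak counts) stayed out. The deposited MiGS signal per 50 bp window came out as whole reads times a step per library for 100% of values (tolerance 0.001); absent windows were taken as 0, and autosomes 1 to 19 were used. A fragment can be counted in neighbouring windows.

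Counts of genes with at least 50 counts were scaled by TMM (edgeR 4.0.16). Log2 ratios had 0.5 added to each count, fold values had none, and intervals are exact (Clopper-Pearson, 95%). The limma 3.58.1 test used log2(signal + 1), so its changes understate low regions, over genes with at least 20 recovered reads, two-sided, at an adjusted p of 0.05; edgeR and DESeq2 1.42.0 on recovered reads were alternatives. Whether the MiGS replicates are separate pools is not labelled, so the spread behind the p-values may be technical. Coordinates, biotypes and promoters are from RefSeq GRCm38.p6. R 4.3.3, Python 3.11.15 and scipy 1.17.1 were used, and steps were tested on simulated data. Members and lists were chosen with earlier results of these data known. Named were the 8 highest and 8 lowest ratios, the 4 highest and 4 lowest mean FPKM, all stalk genes and paralogs, ribosomal proteins with other names, the parents of the 4 largest pseudogene counts, up to 3 genes per list, and in MiGS the 3 smallest p and, at gene ends, the 3 strongest signals; genes outside these were chosen after their values were seen. A few of the genes so chosen are not reported here.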

Additional observations from a re-analysis of the deposited data

How the results depend on the processing

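Of 114 alternative values, 109 kept their direction and stayed near the reported value, and none reversed. Near meant within 1.5 times a reported count. For a median it meant between the median lower and the median upper counting bound of the single genes (0.685 to 1.06 over all members). That range is not an interval of the median. Counts of members at least 2-fold or 1.5-fold lower were 0 in every setting and are among the 109. So are 12 alternatives for captured gene ends and 12 for gene bodies that, like the reported fit, called 0 members. A minimum of 10 counts left the same 82 members and the same values. Such agreement says little about stability. Over all genes, the median shifted from that under TMM to -0.09 (log2) with library totals and -0.14 with upper quartile scaling. Members at least 2-fold higher were then 22 (26.8%) and 21 (25.6%), against 10.4% and 9.97% of all genes. The members' median was 0.74 and 0.69. With only members lacking a row named as their pseudogene, 13 of 31 were at least 2-fold and 26 at least 1.5-fold higher. These counts were lower since fewer genes entered, and the shares over all genes were 11.6% and 20.4%. Requiring the whole counting interval past 2-fold left 16, against 8.83% of all genes.

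With the MiGS replicate number as a block, 2 of the 42 member gene ends passed in limma and the same 2 in edgeR. Both were lower at peak: Rps4l (adjusted p 8.83e-04 in limma and 8.38e-04 in edgeR) and Rpl39l (0.00315 and 0.00936). Member gene bodies stayed at 0 of 36. Over all 24108 gene ends the block gave 1417 by limma (1287 lower) and 803 by edgeR (754 lower), against 0 without it. Over all 26751 gene bodies it gave 227 by limma (223 lower) and 1070 by edgeR (974 lower). The correlation of same-numbered deviations was 0.170 at ends and 0.0930 in bodies, and the labels do not say what a number shares. Leaving out each MiGS library in turn also gave 0 called members, but leaves a lone library whose spread is assumed to be that of the other group, so it says little about stability. A separate treatment of mitochondrial rows was not run, as 0 rows carried such names. Depth limits genes such as Rpl39l, Rpl24 and Rpl23a, with under 100 counts a library in their own rows, and the RNA ratios have no replicate.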

Other observations

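For genes of the X chromosome whose own rows were not analysed here, rows named as pseudogenes held counts: Rpl39-ps had 1536 naive and 3778 peak counts (2.24-fold, 2.11 to 2.38), and Rpl36a-ps2 had 1171 and 3148 (2.45-fold, 2.29 to 2.62). Which locus these reads came from is not known. Among pseudogene rows with at least 50 counts the highest ratio was that of Rps2-ps10, with 61 and 673 counts (10.04-fold, 7.72 to 13.3), while Rps2 itself had 855 and 2182 (2.32-fold, 2.14 to 2.52). Members lay on 18 chromosomes, with 14 on chromosome 7.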
